A study of Drosophila melanogaster with 24 samples.

Results

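The 1504 transcription start sites (TSSs) described here lie at the 3' ends of genes in Drosophila melanogaster embryos, out of 45839 TSSs in the authors' merged list. They are the TSSs that the authors' annotation, made with HOMER, placed at a transcription termination site (TTS, 1337 TSSs) or in a 3' UTR (167 TSSs) and that were called in at least 2 of the 12 capped short RNA (csRNA-seq) libraries. In HOMER's scheme a TTS is the stretch around the annotated end of a transcript, on either strand. csRNA-seq sequences short capped RNAs, whose first base shows where RNA polymerase II began. The TSSs were chosen by the authors' calls, so how often, how strongly and in which libraries they were called is a description and was not tested.

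The libraries came from whole embryos of 3 strains, in the windows 0-2, 2-4, 4-6 and 6-8 h. Cas9 was tinWT, while F3 and M6 were tinmDPE, read here as tinman (tin) with a mutated downstream core promoter element (DPE). With 1 csRNA library for each strain and window, 4 tinWT libraries stood against 8 tinmDPE libraries, and genotype cannot be told apart from the Cas9 strain. The labels do not say how the lines were made or whether libraries came from separate collections, so p-values measure the spread between these libraries, which may in part be technical. The matched input libraries were not analysed here.

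RNA polymerase II reads past the 3' end of a gene before it lets go of the DNA, and the transcript is cut and polyadenylated behind it. Fly genes are packed closely, so the stretch after one gene's end often holds the start of the next gene, on either strand. A TSS that an annotation assigns to a 3' end can therefore make RNA in the sense of the gene that ends, RNA antisense to that gene, or the RNA of its neighbour. Many fly promoters have an initiator, TCAGT, over the start base, and some also have a DPE further downstream or a TATA box upstream.

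Sequences of 11 of these TSSs are shown because the results below turn on them. They were read from the RefSeq Release 6 genome, which has the chromosome lengths of dm6, the build of the files. Each is 30 bases on the strand of the TSS, 5' to 3', and the 5 capitals are centred on the start base, the position most often called. CG14439 and Svip are among the strongest TSSs and lie just inside the next gene, fbp has no annotated start near it, and btsz lies in a 3' UTR.
CG14439 (chrX:6756568-6756597, + strand): ggcatagttcccTCACTtcggcgtcaactt
Svip (chr3L:9360604-9360633, + strand): agcttcatttgcTCATTgatcggcggtcac
fbp (chr2L:19761432-19761461, - strand): gtagttcctccaTTGGAggaactgatttct
btsz (chr3R:14805359-14805388, - strand): taccctccgtacTCAGTctcaggtcgcggg
The next 3 are antisense TSSs whose levels followed the windows, with upd1 and p38a highest at 2-4 h and CycB3 highest at 6-8 h.
upd1 (chrX:18304473-18304502, + strand): gcaaggtagacgGCAGTctgcttccgttcg
p38a (chr3R:24149960-24149989, + strand): tcatgtgcttcaGCAGAcggatctcgcgat
CycB3 (chr3R:24868171-24868200, + strand): caaataacagcaTTAATaacgacgacagga
CG7530 and eIF4E1 mark antisense TSSs inside the 5' end of a neighbour, and CG32026 and step differed between genotypes.
CG7530 (chr3R:14723937-14723966, + strand): cagctcaaacacACGCAcacatatggggga
eIF4E1 (chr3L:9398936-9398965, + strand): catttttcccttTCAACgccaacgaacttc
CG32026 (chr3L:8839422-8839451, - strand): tgagtttgagttTTAGTttgtgctgggacc
step (chr2L:21739773-21739802, + strand): cgcacgggacggTCAGAcggacatggccag
The start base and the base before it read CA in 7 of these 11, and the full TCAGT was centred on the start base in btsz alone.

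The TSSs belonged to many genes and lay on both strands. Of the 1504, 1495 could be tied to the RefSeq gene whose end was annotated, in 1202 distinct genes. One TSS was found for 975 of these genes, and the largest number, 9, was at lola, a gene of many alternative transcription factor isoforms, with 4 sense and 5 antisense. Antisense to the gene that ends were 848 of the 1495, or 56.7% (95% Wilson interval 54.2 to 59.2). TSSs of the TTS class lay a median of 544 bp past the RefSeq end when sense and 568.5 bp past it when antisense. The class itself confines these distances. Of its 1329 matched TSSs, 8 lay beyond 1000 bp of the end and 55 inside the gene. In 498 of the 1495 matched TSSs of both classes, the gene of the nearest promoter was the gene that ends. The authors' table gives the gene of the nearest promoter as the TSS's gene.

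Many lay close to the annotated start of a gene, mostly of a different gene. A RefSeq start on the same strand lay within 1000 bp of 309 TSSs (20.5%), and 238 of these were sense to the gene that ends. In 246 of the 309 that start belonged to another gene, and the TSS was a median of 301 bp downstream of it. Of these 246, 175 were sense to the gene that ends, so that both genes run the same way, and 68 were antisense to it. A start on the opposite strand alone lay within 1000 bp of another 377 TSSs (25.1%), of which 328 were antisense to the gene that ends. In 307 of the 377 the start was that of another gene, with the TSS a median of 371 bp downstream of it and on the other strand. The remaining 818 (54.4%) had no annotated start within 1000 bp on either strand, with 363 sense and 452 antisense. The 1000 bp limit was chosen after the distances were seen.

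**Figure D1:**
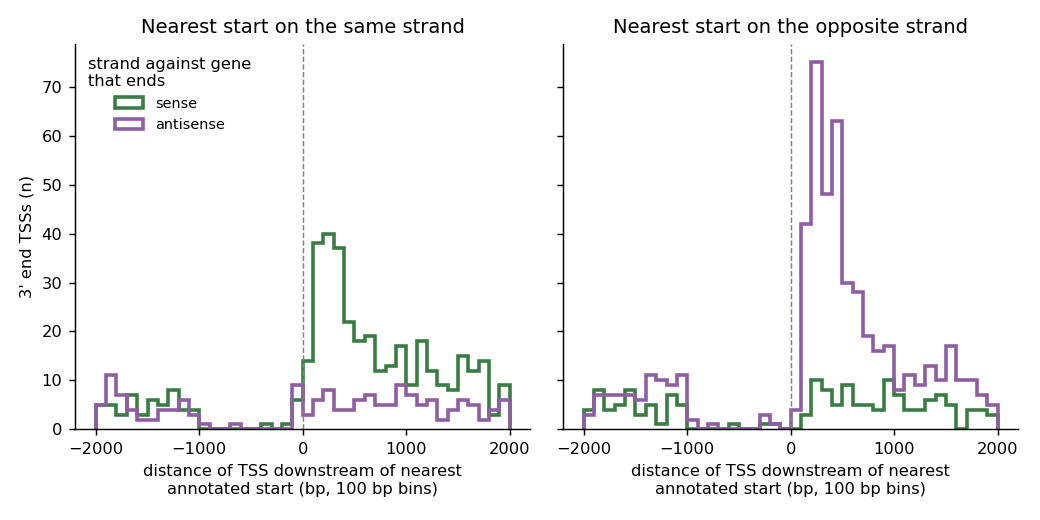
Distance in bp from 1504 TSSs at 3' ends to the nearest annotated RefSeq start on the same strand (left) and on the opposite strand (right), in 100 bp bins, where positive values lie downstream of that start. Sense TSSs (green) pile up downstream of same-strand starts and antisense TSSs (purple) downstream of opposite-strand starts, and only 45 of the 1504 lie from 1000 bp upstream to 100 bp downstream of a start.

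The empty stretch in the plot of distances belongs to the annotation. HOMER assigns TSSs from 1000 bp upstream to 100 bp downstream of a start to the promoter class, so what remains at a 3' end is further downstream. The 3' UTR class was different in this respect, since 159 of its 167 TSSs had no start within 1000 bp. Of the 309 beside a same-strand start, 82 lay in a 5' UTR, 68 in coding sequence and 56 in an intron on their own strand, counted over any transcript there and not only those of the gene whose start is near. Of the 377 beside an opposite-strand start, 111 were opposite a 5' UTR and 101 opposite coding sequence. Among the 818 with no start near, 203 were opposite a 3' UTR, 119 were within one, and 239 had no transcript on either strand.

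Levels are given as the authors' regularized log (rlog) values, a log2 scale on which 1 unit is a doubling and weak TSSs are drawn towards their mean over the libraries. The median of the mean values was 1.75 for TSSs at 3' ends, 4.54 for the 14044 promoter TSSs called in at least 2 libraries and 0.72 for all 45839. TSSs beside a same-strand start had a median of 2.77, those beside an opposite-strand start 1.88 and the rest 1.46. Of the 110 with a mean above 5, 70 lay beside a same-strand start. The level followed the number of calls that the rule used: TTS and 3' UTR TSSs called in 1 library, which were left out, had a median of -0.85, those called in 2 libraries 0.56, and the 27 called in all 12 libraries 5.94.

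Several of the strongest TSSs lay just inside a neighbour that runs in the same direction. Past the end of Svip, 302 bp inside Pdxk, a pyridoxal kinase gene, Cas9, F3 and M6 had 10.28, 10.27 and 10.73 at 0-2 h, 9.88, 10.12 and 10.12 at 2-4 h, then 10.58, 10.42 and 10.69 at 4-6 h, and 10.72, 10.40 and 10.37 at 6-8 h. All 12 libraries lay within 1 unit of one another. Past the end of CG14439, 260 bp inside sov (small ovary), Cas9, F3 and M6 had 9.93, 9.50 and 9.60 at 0-2 h and reached 11.81, 11.09 and 10.66 at 6-8 h, a rise of 1.51 (SE 0.23, adjusted p = 0.000247, limma). At asRNA:CR45257, 567 bp inside Bsg, the gene of the membrane protein basigin, the values rose from 7.94, 8.21 and 8.48 at 0-2 h to 10.59, 10.12 and 10.26 at 6-8 h, by 2.12 (SE 0.25, adjusted p = 2.96e-05, limma). At Spp, 109 bp inside lwr, the gene of the SUMO-conjugating enzyme, they fell from 9.93, 9.46 and 9.49 to 7.88, 7.79 and 8.13, by 1.69 (SE 0.29, adjusted p = 0.000704, limma).

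Among the 10 highest means, fbp, the gene of fructose-1,6-bisphosphatase, was the one with no annotated start within 1000 bp. Its TSS lay 140 bp past the gene's end on the sense strand and had a mean of 9.41. Values were 11.77, 10.62 and 10.93 in Cas9, F3 and M6 at 0-2 h, 9.05, 9.75 and 10.55 at 2-4 h, then 9.06, 8.62 and 9.15 at 4-6 h, and 7.86, 7.62 and 7.88 at 6-8 h. All 3 strains were lowest at 6-8 h, and the fall over the course was 3.32 (SE 0.33, adjusted p = 8.31e-06, limma). The authors called this TSS in 0 libraries at 0-2 h, where its values were highest, and in 8 libraries of later windows. Why it was not called at 0-2 h was not tested. The promoter of fbp itself had window means of 5.76, 4.59, 4.21 and 5.06, lower than its 3' end in each window. At CG8032 the TSS lay beside tRNA:Tyr-GTA-1-6, and 28 TSSs in all lay within 150 bp of a small RNA gene on their strand, 20 of them tRNA genes. Genes of tRNAs are read by RNA polymerase III. Whether RNAs of the small RNA genes contributed to these 28 was not tested.

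**Figure D2:**
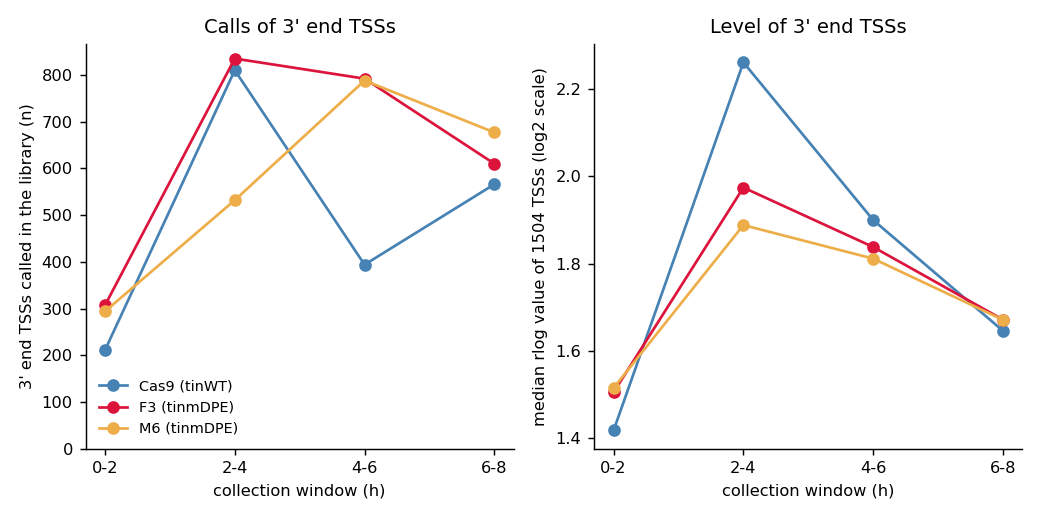
Left, number of the 1504 TSSs called in each of the 12 libraries (y axis, n) by collection window (x axis, h) and strain (colour); right, median rlog value (log2 scale) of the 1504 in each library. Calls run from 211 in Cas9 at 0-2 h to 835 in F3 at 2-4 h, and the median is lowest at 0-2 h and highest at 2-4 h in each strain.

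The libraries differed in depth and in how many of these TSSs they held. Total tags ran from 2632187 in Cas9 at 0-2 h to 10553406 in M6 at 6-8 h. TSSs at 3' ends made up 2.37 to 2.66% of all calls in the 0-2 h libraries and 3.80 to 4.45% in the other 9. Called in any strain were 531 at 0-2 h, 1146 in the next window, then 1105, and 944 in the last, while 265 were called in every window and 790 in all 3 strains. The 0-2 h libraries were also the shallowest, and the part of depth in these counts was not tested. Promoters of 10 stage marker genes were looked at, and most but not all followed the labelled stages. That of bcd, an anterior patterning gene, went from a mean of 8.83 at 0-2 h to 4.89 at 6-8 h, that of slam, a cellularization gene, was highest at 2-4 h at 7.92, and that of elav, a neuronal gene, went from 7.30 to 9.31. Against the labels, Sry-alpha of the cellularization group was highest at 0-2 h (8.35, and 8.19 at 2-4 h), and Mef2, a muscle gene of the later group, had 8.76 at 0-2 h, 7.83 and 7.79 in the middle windows and 8.85 at 6-8 h.

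Promoter-like letters at the start base were less frequent than at promoter TSSs and more frequent than at 3' end TSSs called once. CA at the start was found in 42.7% of TSSs at 3' ends (Wilson interval 40.2 to 45.2), 56.1% of promoter TSSs and 28.1% of 3' end TSSs called in 1 library. TCAGT with its A within 5 bp of the start was found in 6.58% (5.44 to 7.95) against 15.9% and 3.84%, and in 11.7% of those beside a same-strand start against 3.18% of those beside an opposite-strand start. TATAAA starting at -33 to -28 was found in 1.13%, against 3.76% of promoter TSSs. AGAC at +28 of a TCAGT, a narrow form of the DPE, was found in 3 TSSs at 3' ends and in 69 promoter TSSs. Shares were counted over the 1504 and over 14044 promoter TSSs, and the 2265 TSSs called once are those the rule left out. The sets were not matched in level, with medians of 1.75, 4.54 and -0.85. Among the 110 TSSs at 3' ends with a mean above 5, CA was found in 52.7% (43.5 to 61.8). In these 110 TCAGT was found in 10.9% (6.35 to 18.1) and TATAAA in 0.91%. How much of the gap to promoter TSSs goes with level was not tested.

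Motifs outside the start base were searched from 150 bp upstream to 50 bp downstream on both strands. CAGGTA, the core of the site bound by Zelda, a factor of the maternal-to-zygotic transition, was found in 12.2% of TSSs at 3' ends (10.7 to 13.99), in 6.43% of promoter TSSs and in 8.59% of the 24463 TSSs called in at least 2 libraries whose sequence could be read. TATCGATA, the DRE motif of housekeeping promoters, was found in 1.80% against 8.25% of promoter TSSs. GAGAG, the core of the GAGA factor site, was found in 32.2% against 32.5%. AATAAA, the polyadenylation signal, was searched on the TSS's own strand within 50 bp and was found in 5.65% against 6.32%. These matches describe letters in a window and not bound sites.

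Between 0-2 and 2-4 h many more TSSs at 3' ends rose than fell. In limma's fit over all 45839 TSSs with strain as a block, 147 of the 1504 rose and 16 fell past an adjusted p of 0.05, where 6.67% of all TSSs passed, 4.22% higher and 2.44% lower. Their median change was 0.45, against 0.09 for all TSSs and -0.10 for promoter TSSs. Of the rises, 80 had no start near, 41 lay beside an opposite-strand start and 26 beside a same-strand start, while 12 of the 16 falls lay beside a same-strand start. A call follows the level, so TSSs called at 2-4 h and not at 0-2 h, which gave 92 of the rises, were prone to be higher there. Among the 434 called in both windows, 52 rose and 10 fell. Of the 147 rises 101 had at least 2 calls outside 2-4 h, and of the 16 falls 10 had them outside 0-2 h. The other 46 and 6 met the 2-library rule only with the calls of the window where they were higher, so the choice of TSSs favours their difference, and for such TSSs values are given below without a p. With each library centred on its median, which moved the median change of all TSSs from 0.09 to -0.09, 81 rose and 25 fell, and with quantile normalization 91 rose and 19 fell. Without Cas9, F3 or M6, 0 TSSs at 3' ends passed in limma (341, 313 and 455 at an unadjusted p under 0.05). Leaving out any 1 library other than M6 at 0-2 h, M6 at 2-4 h or Cas9 at 4-6 h left 14 to 93. Over all TSSs these same fits gave 121 to 1099 rises and 172 to 723 falls.

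**Figure D3:**
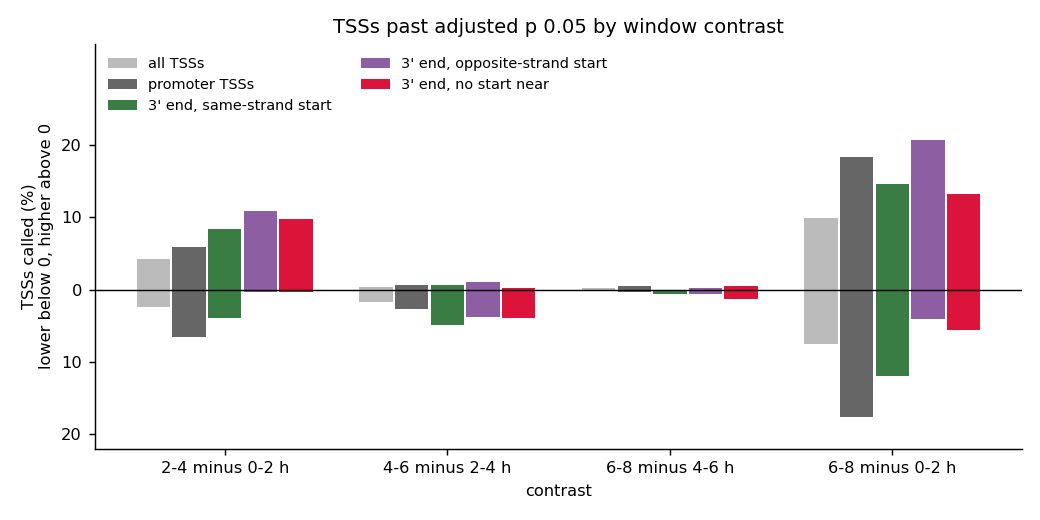
Share of TSSs (y axis, %) past an adjusted p of 0.05 in each window contrast (x axis), higher above 0 and lower below 0, for all 45839 TSSs, for 14044 promoter TSSs and for TSSs at 3' ends split by the nearest annotated start. From 0-2 to 2-4 h rises outnumber falls in each 3' end class (26 and 12, 41 and 1, 80 and 3), and from 2-4 to 4-6 h falls outnumber rises.

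The 5 largest falls from 0-2 to 2-4 h all sat inside a gene that starts on the same strand. At Naa40, antisense to that gene and 290 bp inside Pcd, values were 6.21, 6.10 and 6.05 in Cas9, F3 and M6 at 0-2 h and 2.17, 3.62 and 3.30 at 2-4 h, and then 1.66, 2.80 and 2.31, and 1.31, 1.90 and 1.05. The fall to 2-4 h was 3.09 (SE 0.37, adjusted p = 0.000701, limma) and that over the course 4.70. At Utx, the gene of a histone demethylase, the TSS lay 115 bp inside trk, which encodes the Torso ligand Trunk, and it had 4.22, 4.11 and 4.13 at 0-2 h and 1.16, 2.05 and 1.32 at 2-4 h. At CG13359, 441 bp inside Rbf, the retinoblastoma-family gene, they were 4.54, 5.00 and 4.72 and then 1.37, 3.17 and 2.80, while the promoter of Rbf went from a mean of 10.07 to 8.41. CG31457 and spidey held the other 2 of the 5 largest falls. Utx, CG13359 and CG31457 were called at 0-2 h alone.

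The largest rises to 2-4 h were at 3' ends without a same-strand start near. At p38a, a stress-activated MAP kinase gene, the antisense TSS lay 229 bp inside its neighbour p38c, opposite its coding sequence. Its values were 0.03, 0.01 and 0.00 in Cas9, F3 and M6 at 0-2 h, 2.88, 2.60 and 2.23 at 2-4 h, then 0.03, 0.26 and -0.23 at 4-6 h, and -0.16, -0.18 and -0.30 at 6-8 h. The means differed by 2.56 (SE 0.32) between 0-2 and 2-4 h and by -2.55 (SE 0.32) between 2-4 and 4-6 h. It was called by the authors in the 3 libraries of 2-4 h alone, so it was chosen through the window where it is high and these differences are a description. At upd1, which encodes a ligand of the JAK/STAT pathway, the antisense TSS 867 bp past the gene's end had 0.89, 2.97 and 2.31 at 0-2 h, 4.14, 4.09 and 4.26 at 2-4 h, then 0.89, 0.56 and 0.89 at 4-6 h, and 0.61, 0.57 and 0.40 at 6-8 h. Its mean changed by 2.10 and then by -3.38, and the promoter of upd1 was also highest at 2-4 h, with window means of 7.24, 8.59, 7.87 and 7.54. In the 3' UTR of btsz, the gene of a synaptotagmin-like protein, the sense TSS had 1.06, 2.79 and 2.41 at 0-2 h, 4.41, 4.20 and 4.05 at 2-4 h, then 1.60, 0.73 and 0.68 at 4-6 h, and 1.19, 1.65 and 0.58 at 6-8 h. The promoter of btsz did not follow that course, with window means of 8.45, 9.48, 9.62 and 10.002. CG16989 and Sec61beta held the other 2 of the 5 largest rises, at 2.12 and 2.09. Outside 2-4 h upd1, btsz and Sec61beta had 1 call each and CG16989 had 0, so all 5 were chosen through that window.

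**Figure D4:**
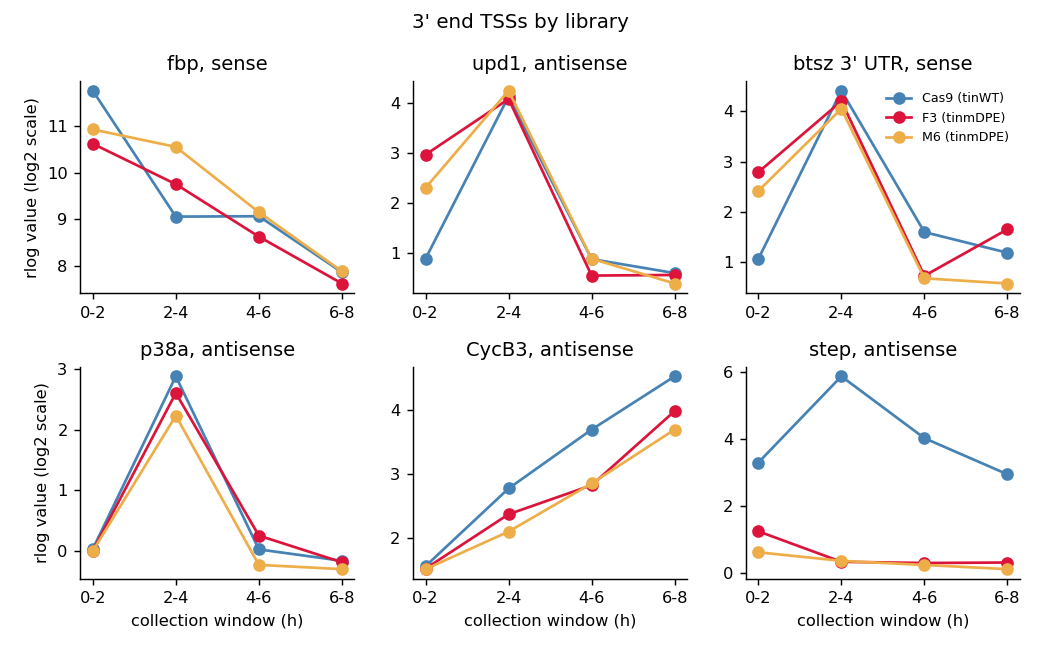
The rlog value (log2 scale, y axis) of 6 TSSs at 3' ends in each of the 12 libraries by collection window (x axis, h), with 1 point per library and 1 colour per strain; y axes differ. fbp falls over the course, upd1, btsz and p38a peak at 2-4 h in all 3 strains, CycB3 rises, and step is at 2.95 or above in the 4 Cas9 libraries and at 1.25 or below in the 8 F3 and M6 libraries.

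From 2-4 to 4-6 h the direction turned. Of the 1504, 61 fell and 8 rose, where 2.11% of all TSSs passed, 1.72% lower and 0.386% higher. The largest fall was at CG14013, 173 bp inside CG18269, from 6.32, 6.71 and 7.10 in Cas9, F3 and M6 to 2.45, 3.31 and 3.79, by 3.52 (SE 0.33, adjusted p = 3.27e-05, limma). It was also the TSS whose window means spread most. At Dyb, the gene of dystrobrevin, the antisense TSS at the gene's end went from 5.40, 4.48 and 4.70 to 1.56, 1.53 and 1.13, while the promoter of Dyb went from a mean of 8.05 to 8.78. CG34136 fell by 3.15. The rises were smaller, from 1.81 at asRNA:CR45798 and 1.72 at CG32026 to 1.46 at CG32445 among the 5 largest, with l(1)G0196 and CG3744 between. Of the 843 called in both windows, 17 fell and 5 rose, and 44 of the 61 falls were in TSSs called at 2-4 h and not at 4-6 h. At least 2 calls outside the higher window were held by 18 of the falls and 7 of the rises. Without Cas9, F3 or M6 the count was 0 in limma (341, 212 and 265 at an unadjusted p under 0.05). Over all TSSs 2 fell and 0 rose without Cas9, and 0 passed without F3 or M6. Leaving out any 1 library other than Cas9 or M6 at 0-2 h left 6 to 39 of the 1504. Of all TSSs, 1 to 315 rose and 75 to 801 fell in these fits.

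Both steps together marked 30 TSSs at 3' ends that rose to 2-4 h and fell to 4-6 h, or 1.99% of the 1504, against 0.613% of all TSSs (281 of 45839). All of the 1504 were called in at least 2 libraries, but only 24465 of the 45839 were. The 2 shares, and those of each contrast, were therefore not matched in calls. Antisense were 20 and sense 10, and 15 had no start near. Their median over the window means was 2.06 at 0-2 h, 3.71 at 2-4 h, then 1.39 at 4-6 h, and last 1.13. Besides p38a, upd1 and btsz they included CG34136, CG12003, CG16989 and halo. The rises ran from 1.12 to 2.56 and the falls from 1.20 to 3.38 in size. Of the 30, 9 had at least 2 calls outside 2-4 h, and the other 21 were chosen through that window, so their number is a description.

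From 4-6 to 6-8 h 14 TSSs at 3' ends fell and 5 rose, where 0.513% of all TSSs passed, 0.229% lower and 0.284% higher. The largest fall was at AnxB9, an annexin gene, from 2.29, 2.92 and 3.22 in Cas9, F3 and M6 to 0.49, 0.46 and 0.36, a difference of -2.37 (SE 0.40), with 1 call outside 4-6 h. OSCP1, Asator, CG3611 and CG3386 followed, with falls of 2.28 to 1.94. The largest rise was antisense to Phs, from 1.03, 1.59 and 1.81 to 3.58, 3.58 and 3.74, a difference of 2.16 (SE 0.37). CG10939, Kaz, CG10459 and lncRNA:CR45224 differed by 1.89 to 1.61. All 5 rises had under 2 calls outside 6-8 h, and 13 of the 14 falls had at least 2 outside 4-6 h. Quantile normalization gave 9 rises and 15 falls, where 130 of all TSSs rose and 119 fell. Centring on the median gave 9 and 12, where 178 of all TSSs rose and 89 fell. Without the replicate block 11 passed, where 50 of all TSSs rose and 47 fell. Without any 1 of the strains Cas9, F3 and M6 0 passed in limma (214, 169 and 235 at an unadjusted p under 0.05). With a strain left out 0 of all 45839 TSSs passed too. Leaving out Cas9 at 0-2 h gave 30, where 205 of all TSSs rose and 162 fell. Leaving out any other single library except M6 at 0-2 h gave 0 to 5. In those fits 0 to 21 of all TSSs rose and 0 to 31 fell.

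Over the whole course, 6-8 against 0-2 h, 231 of the 1504 rose and 97 fell, where 17.4% of all TSSs passed, 9.88% higher and 7.5% lower. Their median change was 0.15, against -0.08 for all TSSs and -0.03 for promoter TSSs. The balance differed by position. Beside an opposite-strand start 78 rose and 15 fell of 377, with no start near 108 rose and 45 fell of 818, and beside a same-strand start 45 rose and 37 fell of 309; whether the classes differ was not tested. In 3' UTRs 13 rose and 5 fell of 167. Among the 339 called in both windows 48 rose and 28 fell. At least 2 calls outside the higher window were held by 171 of the rises and 76 of the falls. Each of the 328 moved the same way in all 3 strains. Passing the threshold with 3 libraries per window favours such agreement, so it is no separate support. Without F3 0 passed in limma (331 at an unadjusted p under 0.05), and 0 of all TSSs did. Without Cas9 187 passed, where 2405 of all TSSs rose and 2077 fell. Without M6 128 passed, where 1876 of all TSSs rose and 1593 fell. Without a single library the count fell to 204 (F3 at 0-2 h), 207 (Cas9 at 6-8 h), 167 (F3 at 6-8 h) and 203 (M6 at 6-8 h).

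The largest rise over the course was at mRpS35, a mitochondrial ribosomal protein gene, 590 bp inside Pgant6, a glycosyltransferase gene. Values were 3.46, 2.33 and 2.32 in Cas9, F3 and M6 at 0-2 h and 5.59, 6.07 and 5.67 at 6-8 h, a rise of 3.08 (SE 0.37, adjusted p = 3.52e-05, limma). At Syt12, 532 bp inside dmrt11E, which encodes a DM-domain transcription factor, they rose from 3.59, 4.52 and 3.99 to 6.20, 7.38 and 7.58, by 3.02 (SE 0.32, adjusted p = 1.41e-05, limma). At CG32026 the antisense TSS 382 bp past the end, which lies opposite an intron of dally, a glypican gene, rose from 4.50, 5.09 and 3.09 to 7.41, 7.28 and 7.15. IA-2, antisense and with 1 call outside 6-8 h, differed by 2.71, and lncRNA:CR30055 rose by 2.69. Among the falls, at Nsun2, an RNA methyltransferase gene, the sense TSS 802 bp past the end went from 6.16, 4.59 and 4.09 to 1.21, 1.17 and 0.97, by 3.83 (SE 0.39, adjusted p = 8.32e-06, limma). The TSS antisense to snoRNA:Me28S-A774a, opposite coding sequence of RpS12, fell from 5.30, 5.99 and 5.47 to 2.55, 1.55 and 2.13.

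A TSS at a 3' end can be set against the strongest promoter TSS of the gene that ends, and 902 of the 1504 had one. The difference, 3' end minus promoter, was higher at 6-8 than at 0-2 h in 168 and lower in 178, where 40.8% of the 16599 TSSs outside promoters with such a partner passed, 9.02% higher and 31.8% lower. The median was -0.05 over the 902 and -0.59 over the 16599. Set against the mean of all promoter TSSs of the gene instead, the balance turned, with 170 of the 902 higher and 141 lower. Their median was 0.05. Over the 16599 the balance did not turn, with 1403 higher, 3842 lower and a median of -0.37. Against the strongest promoter, 80 with no start near were higher and 131 lower, and beside an opposite-strand start 53 were higher and 23 lower. Promoter TSSs had the higher levels, and rlog values shrink weak TSSs, so this difference can carry mainly the promoter's change. Without F3 145 of the 902 passed, where 594 of the 16599 were higher and 2278 lower. Without F3 at 6-8 h alone 197 passed, where 901 of the 16599 were higher and 3437 lower.

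The 5 largest rises against the promoter were all antisense, inside the 5' end of a neighbour whose promoter stood on the opposite strand. At CG7530 the TSS lay 310 bp inside kibra, a gene of the Hippo pathway, and its values were 4.45, 2.87 and 3.31 in Cas9, F3 and M6 at 0-2 h and 4.83, 5.10 and 5.29 at 6-8 h, a rise of 1.53 (SE 0.41, adjusted p = 0.0168, limma). The promoter of CG7530 fell by 3.36 (SE 0.33) and that of kibra rose by 1.60 (SE 0.31). At eIF4E1, the gene of the cap-binding translation factor, the TSS 277 bp inside CG4080 went from 1.71, 1.67 and 1.66 to 3.50, 3.06 and 3.52, while the promoter of eIF4E1 fell by 3.18 (SE 0.34) and that of CG4080 rose by 1.12 (SE 0.22). At Ggt-1, a gamma-glutamyl transpeptidase gene, the TSS 182 bp inside Wnt5 rose by 1.52 (SE 0.38), the promoter of Ggt-1 fell by 3.32 (SE 0.32) and that of Wnt5 rose by 2.29 (SE 0.41). CanA-14F did not share this arrangement of signs: its TSS rose by 1.52, and the promoters of CanA-14F and of its neighbour Pp2B-14D, both calcineurin subunit genes, fell by 3.25 and 1.96. At Gapdh2, a glycolytic enzyme gene, the TSS changed by 0.15 (SE 0.41, adjusted p = 0.826, limma) and the promoter fell by 4.47 (SE 0.33), so the rise of 4.62 in the difference came from the promoter.

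**Figure D5:**
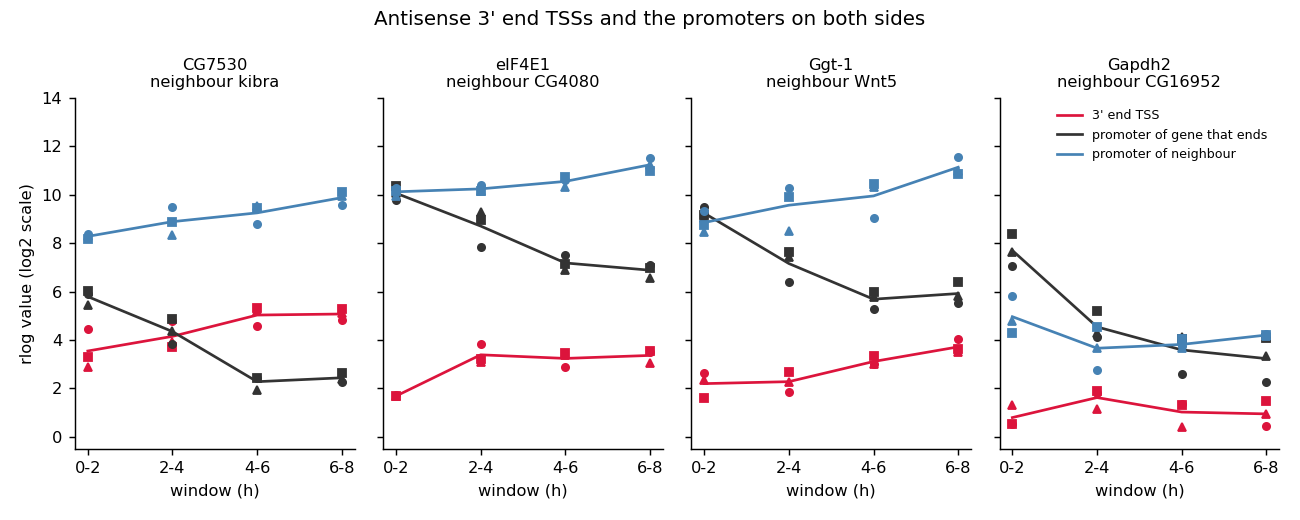
The rlog value (log2 scale, y axis) by window (x axis, h) of an antisense TSS at a 3' end (red), the strongest promoter TSS of the gene that ends (black) and that of the neighbour it lies inside (blue), for 4 of the 5 largest rises of the difference; lines join the means of 3 strains, and circles, triangles and squares are Cas9, F3 and M6. The promoter of the gene that ends falls in each panel, by 3.18 to 4.47, and the antisense TSS rises in the first 3 and not at Gapdh2.

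The largest falls against the promoter were at Nsun2 (4.61), Dyb (3.66), CG12003 (3.56), snoRNA:Me28S-A774a (3.56) and simj (3.46). At Nsun2, whose TSS values are given above, the promoter had 3.95, 4.73 and 4.24 in Cas9, F3 and M6 at 0-2 h and 4.70, 5.34 and 5.22 at 6-8 h. The 3' end was above the promoter of the same library in Cas9 alone at 0-2 h, and below it in all 3 strains at 6-8 h. At CG12003, values rose to 6.32, 5.99 and 5.96 at 2-4 h and fell to 2.33, 2.50 and 2.05 at 6-8 h.

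Across TSSs, the change over the course was set beside that of neighbouring promoters as a description; the points share the same libraries, so no p is given. Beside an opposite-strand start, Pearson's r with that gene's promoter was 0.30 and Spearman's rho 0.29 (n = 282), and with the promoter of the gene that ends r was -0.08 and rho -0.03 (n = 161). Beside a same-strand start r with that gene's promoter was 0.18 and rho 0.20 (n = 149). With no start near, r with the promoter of the gene that ends was 0.11 for sense TSSs (rho 0.10, n = 236) and 0.08 for antisense TSSs (rho 0.10, n = 313). All of these values were low.

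Some TSSs at 3' ends formed pairs that point away from each other, as divergent promoters do. A TSS on the other strand within 300 bp, pointing away, was found for 15.7% of the 1504 (Wilson interval 13.9 to 17.6), 24.8% of promoter TSSs, 15.1% of intronic, 13.1% of intergenic and 12.7% of exonic TSSs called in at least 2 libraries. In 104 such pairs both TSSs were at 3' ends, and in 80 of these the changes over the course had the same sign. Both passed in 15 pairs, and in 14 of them in the same direction, while at CG18335 one rose by 1.44 and the other fell by 2.62. These shares were not counted for other divergent pairs. Whether pairs at 3' ends agree more often than those of promoters was therefore not tested. At Diap2, an apoptosis inhibitor gene, the pair rose by 2.34 and 1.92, and at bw, an eye pigment transporter gene, it fell by 1.55 and 1.75.

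Between genotypes 7 of the 1504 passed, 6 lower and 1 higher in tinmDPE than in tinWT, where 0.323% of all TSSs passed, 0.148% lower and 0.175% higher. Of the 7, 6 met the 2-library rule only with the calls of the genotype where they were higher, so the choice of TSSs favours these differences, which are given as a description with no p. Antisense past the end of step, which encodes a guanine nucleotide exchange factor of Arf GTPases, Cas9 had 3.30, 5.88, 4.03 and 2.95 over the 4 windows in turn. In F3 they were 1.25, 0.34, 0.30 and 0.32, and in M6 0.62, 0.37, 0.25 and 0.12. The groups did not overlap, as the choice favours, and the difference was -3.60 (SE 0.39). The TSS was called by the authors in the 4 Cas9 libraries alone, and the 1 other TSS within 2000 bp differed by 0.17.

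The sense TSS 40 bp past wech, a gene of muscle attachment, had 2.40, 2.16, 2.89 and 5.71 in Cas9 over the windows, 0.43, 1.01, 0.14 and 0.15 in F3, and 0.42, 0.19, 0.09 and -0.02 in M6 (difference -2.99, SE 0.46), and 1 of the 5 other TSSs within 2000 bp also passed. It was called in Cas9 alone. At CG32026 the antisense TSS 594 bp past the end had 6.00, 6.33, 7.86 and 9.30 in Cas9, 4.64, 3.52, 5.19 and 6.26 in F3, and 3.14, 3.87, 5.81 and 6.07 in M6, a difference of -2.56 (SE 0.28), and was higher at 6-8 than at 0-2 h in each strain. It was called in the 4 Cas9 libraries alone. The TSS 382 bp past the same end, called in F3 and M6 alone, differed by -0.35. TSSs antisense to snRNA:U2:38ABb and lncRNA:CR44357 were lower by -1.94 and -1.64, one antisense to GstT3, named after its value was seen, by -1.47, and one antisense to Rbp6, an RNA-binding protein gene, was higher by 1.64. U2 was called in 2 Cas9 libraries alone, lncRNA:CR44357 in 3 of Cas9 and 1 of F3, and Rbp6 in 5 of F3 and M6, each through the genotype where it was higher, while GstT3 was called in 5 libraries of F3 and M6, where it was lower. Whether copies of U2 share reads is not known from the files. Without F3 or M6 0 passed in limma (93 and 111 at an unadjusted p under 0.05), and with strain as a correlated block 27 did. Over all TSSs 0 passed without F3 or M6, and with the correlated block 350 were higher and 334 lower. Leaving out F3 at 2-4 or 4-6 h, M6 at 2-4, 4-6 or 6-8 h, or Cas9 at 4-6 or 6-8 h left 2 to 4. Of all TSSs, 13 to 46 were higher and 15 to 38 lower in those fits.

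Between the 2 tinmDPE strains, F3 against M6, 0 of the 1504 passed in limma (91 at an unadjusted p under 0.05), where 0.00218% of all TSSs did.

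Of the 14534 genes named at any TSS, 8.27% had one of the 1504 at their 3' end. Among 10 gene lists, chosen with earlier results known, this was so for 2 of 15 gap and pair-rule genes, 1 of 7 segment polarity genes, 6 of 26 mesoderm and heart genes, 3 of 7 cellularization genes and 2 of 15 cell cycle genes. Below 8.27%, it was so for 3 of 90 ribosomal protein genes (3.33%) and 1 of 24 heat shock genes (4.17%). It was so for 0 of 8 Hox, 0 of 15 maternal and 0 of 16 histone genes; whether the lists differ from all genes was not tested. The mesoderm and heart list had 9 TSSs in 6 genes, Doc2, Him, if, mbc, twi and zfh1, of which 3 rose over the course and 0 fell in limma, where 9.88% of all TSSs rose and 7.5% fell. Their median change was 0.44. At twi, the mesoderm determinant, the sense TSS 186 bp past the end had 6.08, 5.44 and 5.69 in Cas9, F3 and M6 at 0-2 h and 8.50, 7.56 and 6.42 at 6-8 h, a rise of 1.76 (SE 0.34, adjusted p = 0.00177, limma), while the promoter of twi changed by 0.53 (adjusted p = 0.31, limma). The antisense TSS at twi rose by 1.79, and that of Doc2, a T-box gene of the heart field, was sense and differed by 1.54. Hedgehog (hh), the single segment polarity gene, rose antisense by 1.52, and slp1, 1 of the 3 gap and pair-rule TSSs, differed antisense by 1.58. Doc2 and slp1 had 1 call outside 6-8 h.

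The cellularization list held 3 TSSs, of Sry-alpha, slam and halo. The sense TSS of Sry-alpha, 116 bp inside Sry-delta, passed in no window contrast and changed by -0.09 over the course (adjusted p = 0.868, limma). The antisense TSSs of slam and halo, genes of membrane growth and early transport, were highest at 2-4 h. At slam values were 0.15, 0.12 and 2.21 in Cas9, F3 and M6 at 0-2 h, 3.11, 1.17 and 2.63 at 2-4 h, then 0.14, -0.09 and -0.12 at 4-6 h, and -0.05, -0.08 and -0.19 at 6-8 h. The difference from 2-4 to 4-6 h was -2.32 (SE 0.49). At halo, inside its neighbour CG18132, the mean changed by 1.46 to 2-4 h and then by -1.97. Outside 2-4 h slam had 1 call and halo had 0, so both were chosen through that window. CycB3, a mitotic cyclin gene, had an antisense TSS 171 bp past its end whose values were higher in each later window in all 3 strains, from 1.57, 1.53 and 1.52 through 2.78, 2.38 and 2.11, then 3.69, 2.83 and 2.85, to 4.52, 3.98 and 3.69, by 2.52 over the course (SE 0.33, adjusted p = 8.07e-05, limma), while the CycB3 promoter changed by 0.10 (SE 0.25). Of 3 TSSs at the ends of ribosomal protein genes, the antisense one at RpL38 rose by 1.41 over the course, and the one at RpL34b, called at 2-4 h alone, differed by 1.36 to 2-4 h. The heat shock list held Hsc20 alone, with no call.

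The TSS whose window means spread least was antisense to Drep2, a DNA fragmentation factor-related gene. Its values were 2.93, 0.71 and 0.70 in Cas9, F3 and M6 at 0-2 h, 0.62, 2.58 and 1.41 at 2-4 h, then 1.25, 2.38 and 0.49 at 4-6 h, and 2.18, 1.51 and 0.70 at 6-8 h. The strains disagreed within each window, so even window means here did not mean steady values.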

How the data were processed

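Capped short RNA was sequenced from embryos of 3 strains in 4 windows, 12 csRNA libraries in all. Per the file headers, HOMER's mergePeaks joined the authors' lists by strand, and HOMER quantified the result on dm6. The deposited values are rlog values on a log2 scale, scaled by the authors over the 12 libraries. The authors' deposited score of each merged TSS was not used. The submitters' processing notes also list STAR 2.7.10a and edgeR, without saying what for. The TSS caller is not given in the sources used here.

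Both tables were matched on position and strand, and 0 columns of values were left out. The start base was the midpoint most often called. RefSeq transcripts gave the gene that ends, its strand and the nearest starts. limma 3.58.1 in R 4.3.3 (lmFit, eBayes with trend) was fitted to all 45839 TSSs, with Benjamini-Hochberg adjustment and a threshold of 0.05. Window contrasts had the strain as replicate block, since each strain is a line. Within a strain, deviations from the window means correlated by 0.145 (Cas9), 0.111 (F3) and 0.126 (M6) on average. Between libraries of different strains and windows they correlated by -0.063. Deviations sum to 0 over the strains of a window, so this negative value largely follows from the others and is no separate reference. The genotype and F3-M6 fits had window terms. The fits were tested on simulated data. Intervals of shares are Wilson intervals and cover counting error only. Tables used Python 3.11.15, pandas 2.3.3 and scipy 1.17.1.

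Genes were named by rule: the 10 highest means; for each comparison the 5 largest rises and 5 largest falls that passed and moved the same way throughout, 1 TSS per gene; TSSs of listed genes; and the least and most spread over windows. The TSSs, gene lists and comparisons were chosen with earlier results of these data known. Alternatives were quantile normalization, median centring, a filter at the 25th percentile of level, no trend, left-out libraries and strains, no block, other call numbers and classes, other motif tolerances, and all promoters of a gene as its partner.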

Additional observations from a re-analysis of the deposited data

How the results depend on the processing

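Depth and 1 library per strain and window limit these results, and the rlog scale understates changes of weak TSSs. Of 1124 recomputed values of named TSSs 828 kept their call and 296 lost it. Of the 296, 113 lost it with a strain left out, 177 with a library left out and 6 under other settings. The cause was not tested. No direction was reversed. TSSs named for a comparison had moved the same way throughout, so leaving out a strain or library could hardly reverse them. The lack of reversals is therefore no test of how steady they are. TSSs past the threshold numbered 163, 69, 19 and 328 in the consecutive and whole-course contrasts, 7 between genotypes, 0 between F3 and M6, and 346 against the promoter. Without Cas9 the 4 window counts were 0, 0, 0 and 187, without F3 0, 0, 0 and 0, and without M6 0, 0, 0 and 128; without F3 or M6 the genotype count was 0, and without F3 the promoter count 145. Where leaving out a strain gave a window or genotype count of 0, all TSSs gave 0 too. The exception was 2 falls from 2-4 to 4-6 h without Cas9. With 1 library left out the 4 window counts ran from 14 to 151, 6 to 86, 0 to 30 and 167 to 347, the genotype count from 2 to 9 and the promoter count from 197 to 372. The counts over all TSSs beside the lowest of these are given with each contrast above. Median centring gave 106 for 2-4 against 0-2 h, where 1021 of all TSSs rose and 1717 fell. With no replicate block the count for 6-8 against 4-6 h was 11, and without a trend 32; the other window counts stayed within 1.5 times without the block. Against the mean of all promoters of the gene 311 passed, where 1403 of the 16599 were higher and 3842 lower. With strain as a correlated replicate block the genotype count was 27, where 350 of all TSSs were higher and 334 lower. Without a trend 1 TSS passed between F3 and M6.

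Called in at least 1 library were 3769 TSSs, and 167 in the 3' UTR class. In these 2 sets 16.4% and 3.59% lay beside a same-strand start, 20.4% and 1.20% beside an opposite-strand start, and 63.1% and 95.2% had no start near; for TTS alone the shares were 22.7, 28.05 and 49.3%. Antisense were 61.4% of the 3' UTR class. With limits of 500 and 300 bp, added after seeing the data, the same-strand share was 13.0 and 8.51%, the opposite-strand share 16.9 and 8.78%, and the rest 70.1 and 82.7%. In at least 1 library, TCAGT was in 4.94%, CA in 33.9%, CAGGTA in 9.87%, TATCGATA in 1.17% and GAGAG in 28.4%; CA was in 45.3% of those in at least 3. In the 3' UTR class, TCAGT was in 9.58%, CA in 38.3%, CAGGTA in 5.99%, AATAAA in 2.40% and TCAGT with AGAC in 0%, and the last in 0.0665% with a tolerance of 2 bp.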
